A study of Mus musculus with 12 samples.

Results

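The AP-1 and Batf transcription factors were examined in the mouse colorectal carcinoma line MC38, in wild-type and Smarcd1 knockout cells, each untreated or given interferon (IFN). The members were 10 genes chosen by symbol, Fos, Fosb, Fosl1, Fosl2, Jun, Junb, Jund, Batf, Batf2 and Batf3, out of 51826 genes in the deposited tables. All 10 had a row, and 9 passed the filter on low counts; Batf did not. Poly-A RNA was sequenced as paired reads of 150 bp from 12 libraries, in 4 groups of 3. The groups were the wild-type line without IFN, the wild-type line with IFN, the Smarcd1 knockout without IFN and the Smarcd1 knockout with IFN. The knockout was made with a guide RNA against Smarcd1, which encodes a shared part of SWI/SNF chromatin remodellers, and all 4 groups share the MC38 background. The sources used here do not name the IFN, its dose or time, the number of knockout clones, or whether the 3 libraries of a group came from separate cultures. Each p-value thus rests on the spread between these libraries alone, which may be technical.

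AP-1 is a dimer of basic leucine zipper (bZIP) proteins, in which a Jun protein pairs with a Fos protein or with another Jun protein and binds the TPA response element. Fos, Fosb and Junb are classical immediate early genes, transcribed within minutes of growth factor, stress or cytokine signals. Fosl1 (Fra-1) and Fosl2 (Fra-2) lack the strong activation domain of Fos, and Fosl1 is a frequent main Fos protein of invasive carcinoma cells. The Batf proteins pair with Jun proteins and act together with IRF factors on composite elements, and Batf2 is an interferon-induced gene best known from macrophages and dendritic cells.

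The groups follow the sample titles, because genotype and treatment entries of the labels disagree with the titles for 6 libraries. Smarcd1 had 85.1, 106 and 81.8 CPM (counts scaled to library size) in untreated wild-type libraries and 49.4, 50 and 54.9 CPM in untreated knockout libraries, a log2 fold change of -0.82 ± 0.13 (SE, edgeR adjusted p = 0.000814). With IFN it had 86.5, 99.6 and 123 CPM in wild-type and 58.7, 60.2 and 60.6 CPM in knockout libraries (-0.79 ± 0.13, adjusted p = 0.00109), so the libraries of the genotypes did not overlap. Grouped by the genotype and treatment entries instead, the knockout differences were 0.18 and 0.22 and did not pass. That grouping would exchange the comparison of IFN in wild-type cells with the comparison of untreated knockout cells. Libraries held 31752685 to 45721356 counts. Mitochondrial genes took 1.52% to 4.82% of them, with replicate 2 of untreated wild-type cells highest, and that library stood apart from the other 11 on the third principal component (score -50.92). Fibroblast markers summed to 237 to 567 CPM, with 84184 counts of Col1a2 over all libraries but only 7 of Thy1 and 2 of Lum. The epithelial and colorectal list summed to 1.18 to 6.74 CPM. Over all libraries its Cdh1 had 1161 counts, Krt19 256, Cdh17 140, Krt8 66, Vil1 33 and Krt18 10. Its Epcam, Cdx2 and Krt20 had 0 counts in all libraries. The T cell genes Cd3d, Cd3e, Cd3g, Cd8a and Cd8b1, the B cell gene Ms4a1 and the macrophage gene Adgre1 also had 0 counts in all libraries. Other genes of these lists were present: over all libraries Pax5 had 7741 counts, Zbtb46 5614, Cd68 2984, Lck 2718 and Cd4 102. Lck fell in the knockout by 1.02 ± 0.17 in untreated cells (adjusted p = 0.00104) and by 1.26 ± 0.17 in cells with IFN (adjusted p = 0.000208), as did Pax5, and the part of these genes in the members' differences was not tested. The T cell list summed to 6.42 to 10.3 CPM in wild-type and 3.63 to 4.55 CPM in knockout libraries, the B cell list to 11.0 to 56.4 and 2.19 to 6.69 CPM, and the dendritic cell and macrophage list to 17.7 to 22.9 CPM over all libraries.

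The 250 bases before the start site of 4 members are shown because Fos, Fosb and Junb were higher with IFN in both genotypes while Jun was not called with IFN in either. They are RefSeq sequences of build GRCm38.p6, each read 5′ to 3′ on the gene's own strand and found at chr12:85473640-85473889 (Fos, plus strand), chr7:19310046-19310295 (Fosb, minus strand), chr8:84978749-84978998 (Junb, minus strand) and chr4:95052223-95052472 (Jun, minus strand). Capitals mark the TATA box in Fos and the CRE-like site in Jun.
Fos: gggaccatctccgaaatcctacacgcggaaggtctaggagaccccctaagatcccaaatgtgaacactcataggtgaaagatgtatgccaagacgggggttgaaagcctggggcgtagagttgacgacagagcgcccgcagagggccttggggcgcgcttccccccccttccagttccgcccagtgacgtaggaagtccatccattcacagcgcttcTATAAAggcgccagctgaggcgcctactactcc
Fosb: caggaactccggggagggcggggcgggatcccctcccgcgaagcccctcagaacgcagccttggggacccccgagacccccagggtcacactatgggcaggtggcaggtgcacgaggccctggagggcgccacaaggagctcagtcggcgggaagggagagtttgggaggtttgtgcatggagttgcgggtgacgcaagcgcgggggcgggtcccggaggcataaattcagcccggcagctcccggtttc
Junb: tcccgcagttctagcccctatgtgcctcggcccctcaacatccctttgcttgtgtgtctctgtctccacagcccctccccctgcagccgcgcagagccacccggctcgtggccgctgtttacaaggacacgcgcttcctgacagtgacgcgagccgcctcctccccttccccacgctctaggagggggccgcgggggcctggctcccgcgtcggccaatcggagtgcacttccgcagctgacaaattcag
Jun: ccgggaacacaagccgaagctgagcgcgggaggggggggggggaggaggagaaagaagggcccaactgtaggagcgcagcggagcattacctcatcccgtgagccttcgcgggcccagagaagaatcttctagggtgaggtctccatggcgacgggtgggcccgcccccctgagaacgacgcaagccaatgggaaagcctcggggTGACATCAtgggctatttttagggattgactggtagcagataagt
The Fos promoter holds TATAAA from 33 to 28 bases before the start, a match found in 7.59% of the 32851 mouse promoters in the table. The Jun promoter holds a match to TGACNTCA from 45 to 38 bases before the start, a match found in 7.49% of them. Entries were found for 8 of the 10 members. Fosl1 and Batf2 had none, so their promoters were not searched for any site. The Jund entry ended at base 70697738 of chromosome 8, before the gene start of 70698949 in the annotation used for positions. By that annotation the Batf3 and Fosl2 entries ended inside the gene, at bases 191098413 and 32136471. The bases before the other starts were not searched. Both strands were searched, except for the TATA box, which was searched on the gene's own strand only. The percentages count a match anywhere in the 250 bases. The AP-1 site TGANTCA (6.75% of all promoters), the NF-kB site (0.356%) and the CArG box (1.47%) matched in none of the 8 within these 250 bases. Bases farther upstream were not searched, so the lack of a match does not mean that a gene lacks the site. A GAS element (TTCNNNGAA, 7.02%) matched only in Batf3 and an ISRE (2.98%) only in Fosl2. Guanine and cytosine made up 58.4% of the bases in Fos, 68.8% in Fosb, 66.4% in Junb and 61.2% in Jun, against a median of 52.4% over all promoters.

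The level per kilobase of exon placed Fosl1 first in every group. In untreated wild-type cells Fosl1 had 311 ± 116 CPM per kb (mean ± SD, n = 3), Jun 125 ± 13, Jund 70.3 ± 1.91, Junb 48.7 ± 5.37 and Fosl2 9.10 ± 0.128, and the libraries of these neighbours did not overlap. Batf2 (2.25 ± 0.381), Fosb (0.771 ± 0.108) and Fos (0.544 ± 0.128) followed, and Fos overlapped Batf3 (0.281 ± 0.189). Batf was last at 0.0688 ± 0.0296. The order of the first 5 was the same in untreated knockout cells. With IFN, Junb lay above Jund in both genotypes. The lengths include bases shared with other genes, 57.2% of them in Fosl1 and 52.6% in Jund. How counting treated these bases is not stated, so the order between genes may depend on it. Batf2 passed Fosl2 with IFN in wild-type cells (12.7 against 9.04 CPM per kb, libraries apart), but not in knockout cells (6.02 against 12.5).

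**Figure D1:**
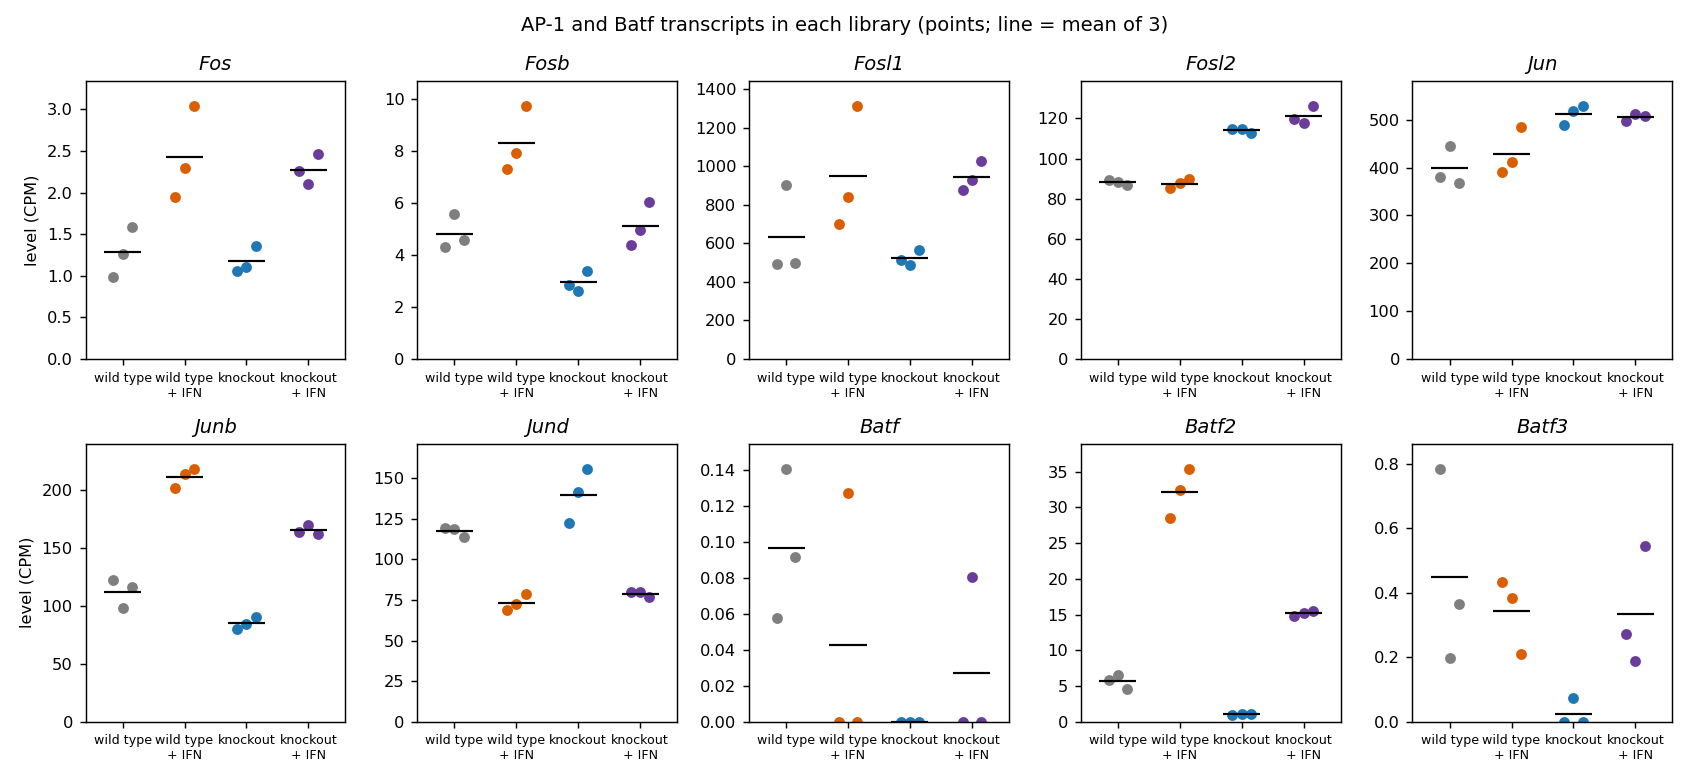
Level of each of the 10 members in CPM (vertical axes, each from 0) in the 12 libraries, by group; points are libraries and lines are group means. Batf2 and Junb are higher with IFN and lower in the knockout, Jund is lower with IFN, and Fosl2 is higher in the knockout.

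Of the Jun family, the usual partners of Fos and Batf proteins, Junb and Jund moved in opposite directions with IFN. Junb (ENSMUSG00000052837, chromosome 8, 84974484 to 84978718, GRCm38) had 122, 98.3 and 116 CPM in untreated wild-type libraries and 202, 214 and 218 CPM with IFN. In knockout libraries it had 80.2, 84.0 and 90.7 CPM without and 164, 170 and 162 CPM with IFN. No library of 1 group overlapped those of another, with the order from untreated knockout up to wild-type with IFN. Junb rose with IFN by a log2 fold change of 0.91 ± 0.09 in wild-type cells (edgeR adjusted p = 3.44e-05) and 0.96 ± 0.09 in knockout cells (adjusted p = 1.16e-05). In untreated cells the knockout had 0.758 of the wild-type level (log2 -0.40 ± 0.09, adjusted p = 0.00736). With IFN it had 0.781 of it (-0.36 ± 0.09, adjusted p = 0.0142). The latter call was lost without replicate 1 or 3 of knockout cells with IFN or replicate 2 of wild-type cells with IFN (adjusted p up to 0.0618). It was also lost in edgeR without a filter on low counts (adjusted p = 0.0506). The call in untreated cells held whichever library was left out. It was lost in an edgeR fit of only the groups compared (adjusted p = 0.0684). In the authors' TPM, Junb is listed at 0 in replicate 1 of untreated wild-type cells, where it had 4210 counts.

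Jund (chromosome 8, 70698949 to 70700616), the Jun protein that antagonises proliferation in several cell types, had 119, 119 and 114 CPM in untreated wild-type libraries and 68.9, 72.4 and 78.7 CPM with IFN. Knockout libraries had 122, 141 and 156 CPM without and 79.8, 80.0 and 76.9 CPM with IFN. Each library with IFN lay below each library without it. Jund fell by 0.68 ± 0.09 on the log2 scale with IFN in wild-type cells (adjusted p = 0.000532) and by 0.82 ± 0.09 in knockout cells (adjusted p = 6.2e-05). Its knockout differences did not pass, at 0.25 ± 0.09 in untreated cells (adjusted p = 0.0741) and 0.11 ± 0.09 in cells with IFN (adjusted p = 0.505); the first passed in DESeq2 (adjusted p = 0.0488). Of the exonic bases of Jund, 52.6% overlap the antisense gene Gm11175, which had a mean of 0.390 to 0.507 CPM per group and was not called in any comparison.

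Jun (chromosome 4, 95049034 to 95052222), the namesake subunit with the strongest activation domain of the family, was the steadiest of the 3 with IFN. It had 381, 446 and 369 CPM in untreated wild-type libraries, 390, 411 and 485 CPM with IFN, 490, 518 and 528 CPM in untreated knockout libraries and 498, 511 and 507 CPM in knockout libraries with IFN. All 6 knockout libraries lay above all 6 wild-type libraries. The knockout raised Jun by 0.36 ± 0.10 without IFN (adjusted p = 0.022), a call lost without replicate 1 or 3 of untreated wild-type cells or replicate 2 or 3 of untreated knockout cells (adjusted p up to 0.0835), and in a fit of only the groups compared (adjusted p = 0.0842). With IFN the difference was 0.24 ± 0.10 (adjusted p = 0.123). It passed without the 2 wild-type libraries with over 2% mitochondrial counts (0.34, adjusted p = 0.00203), an alternative chosen after seeing the data. With IFN, Jun differed by 0.11 ± 0.10 in wild-type (adjusted p = 0.561) and -0.02 ± 0.10 in knockout cells (adjusted p = 0.933).

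**Figure D2:**
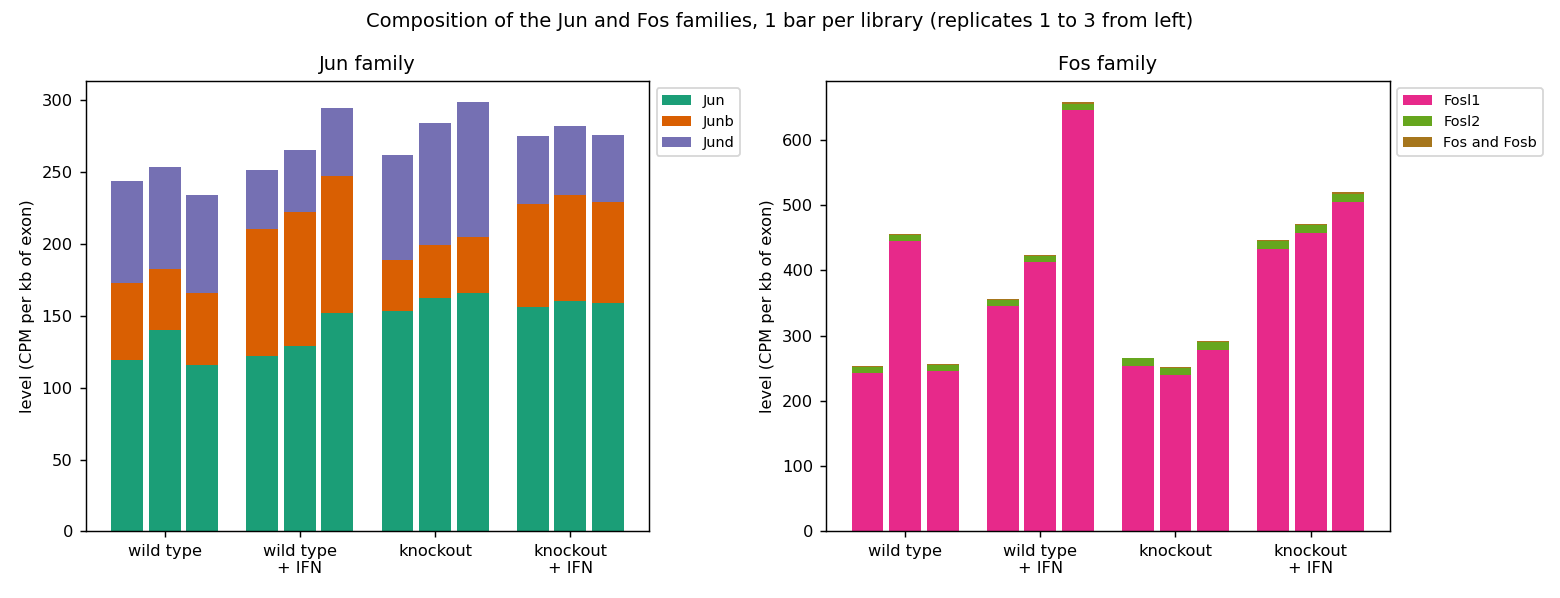
Levels of the Jun family (left) and the Fos family (right) in CPM per kb of exon (vertical axes), stacked by gene with 1 bar per library, in replicate order within each group. The Junb segment is larger than the Jund segment in the libraries with IFN and smaller in those without, and Fosl1 fills nearly the whole Fos family.

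The make-up of the Jun family differed between libraries with and without IFN, while the group means of its sum lay between 244 and 281 CPM per kb (single libraries 234 to 298). The ratio of Junb to Jund, per kb, was 0.694 ± 0.0817 in untreated wild-type cells (SD, n = 3), 2.09 ± 0.0731 in wild-type cells with IFN, 0.443 ± 0.0287 in untreated knockout cells and 1.52 ± 0.0250 in knockout cells with IFN. Junb took 20.0% ± 2.78 of the family sum in untreated wild-type cells and 34.1% ± 1.6 with IFN. In knockout cells it took 13.1% ± 0.238 without and 25.8% ± 0.331 with IFN. Jun held 51.1% and 49.7% in wild-type cells, without and with IFN, and 57.2% and 57.1% in knockout cells. These shares follow from the members' levels and are a description, with no test of their own. The shares and the ratio of Junb to Jund may also depend on how counting treated the overlap of Jund with Gm11175.

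In the Fos family, Fosl1 made up 95.2% to 97.5% of the summed level per kb, as group means. Fosl1 (chromosome 19, 5447547 to 5455946) had 493, 905 and 499 CPM in untreated wild-type libraries and 703, 839 and 1311 CPM with IFN. Untreated knockout libraries had 515, 486 and 567 CPM, and those with IFN had 879, 929 and 1026 CPM. The wild-type groups overlapped through replicate 2 of the untreated cells, while the knockout groups did not overlap. Fosl1 rose with IFN in knockout cells by 0.85 ± 0.25 (adjusted p = 0.0471). That call was lost in 7 of 12 fits that left out 1 library, 6 of them without a library of that comparison and 1 without replicate 2 of wild-type cells with IFN (adjusted p up to 0.136). It was also lost in edgeR with DESeq2 size factors (adjusted p = 0.0526) and without a filter (adjusted p = 0.123). In limma on log2(TPM + 0.1) it was lost too (adjusted p = 0.0501). In wild-type cells the difference was 0.59 ± 0.25 (adjusted p = 0.181), and without replicate 2 of the untreated cells it was 0.94 and passed (adjusted p = 0.0206). The interaction, the test of whether the IFN effect differed between genotypes, gave 0.27 ± 0.36 (adjusted p = 0.789).

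**Figure D3:**
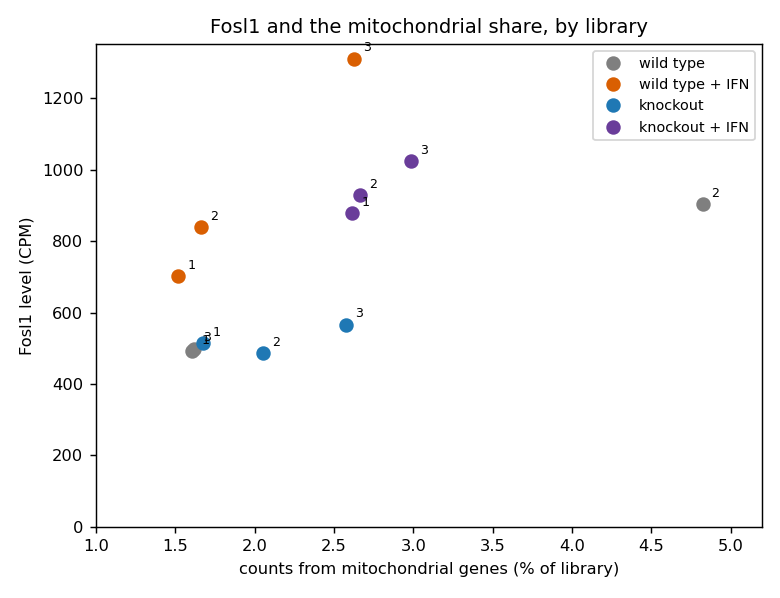
Fosl1 level (CPM, vertical axis) against the share of counts from mitochondrial genes (percent, horizontal axis) in the 12 libraries, labelled by replicate number. In each group the library with the most mitochondrial counts has the highest Fosl1, with replicate 2 of untreated wild-type cells at 4.82% and 905 CPM.

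Mitochondrial share was set beside Fosl1 within each group. In untreated wild-type cells it was 1.61%, 4.82% and 1.62%, and with IFN 1.52%, 1.66% and 2.63%. In knockout cells it was 1.68%, 2.05% and 2.58% without and 2.62%, 2.67% and 2.99% with IFN. The library with the most mitochondrial counts had the highest Fosl1 in each of the 4 groups. The order of the other libraries differed in untreated knockout cells. There replicate 2 had a higher share than replicate 1 but less Fosl1 (486 against 515 CPM). The part of the mitochondrial share in the Fosl1 differences was not tested. Without both wild-type libraries over 2%, Fosl1 differed with IFN by 0.64 in wild-type cells (adjusted p = 0.00384). Of the exonic bases of Fosl1, 57.2% overlap Ccdc85b on the opposite strand, and whether counting used strand is not stated by the sources at hand. Ccdc85b had 61, 30.2 and 56.2 CPM in untreated wild-type libraries, lowest where Fosl1 was highest, and was not called in any comparison.

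The other Fos genes were far lower. Fosl2 (chromosome 5, 32135801 to 32157842), which encodes Fra-2, had 89.1, 88.5 and 86.7 CPM in untreated wild-type libraries and 115, 115 and 113 CPM in untreated knockout libraries. With IFN it had 85.1, 87.7 and 89.9 CPM in wild-type and 120, 118 and 126 CPM in knockout libraries. Each knockout library lay above each wild-type library, and IFN left the wild-type libraries overlapping. Fosl2 rose in the knockout by 0.37 ± 0.06 without IFN (adjusted p = 0.00147) and by 0.47 ± 0.06 with IFN (adjusted p = 0.000255), and it kept both calls whichever library was left out. Its differences with IFN were -0.01 ± 0.06 in wild-type (adjusted p = 0.951) and 0.09 ± 0.06 in knockout cells (adjusted p = 0.426).

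Fosb (chromosome 7, 19302696 to 19310051), which has the strong activation domain and a truncated isoform known from the brain, had 4.29, 5.57 and 4.58 CPM in untreated wild-type libraries and 7.31, 7.91 and 9.71 CPM with IFN. Knockout libraries had 2.85, 2.63 and 3.40 CPM without and 4.38, 4.95 and 6.05 CPM with IFN. In each genotype every library with IFN lay above every one without it. Fosb rose with IFN by 0.79 ± 0.17 in wild-type (adjusted p = 0.0125) and 0.79 ± 0.17 in knockout cells (adjusted p = 0.00939). In the knockout it fell by 0.70 ± 0.17 without IFN (adjusted p = 0.0156) and by 0.70 ± 0.17 with IFN (adjusted p = 0.0142). Each of these 4 calls was lost without 1 or more single libraries, with adjusted p up to 0.0525, 0.0509, 0.0594 and 0.0724 in that order. The highest Fosb of each group was also in the library with the most mitochondrial counts. The 4 calls held without both wild-type libraries over 2% mitochondrial (adjusted p = 0.0236, 0.00394, 0.0345 and 0.0307). That fit left out no knockout library, though all but replicate 1 of untreated knockout cells were over 2%. The part of the mitochondrial share in the Fosb differences was thus not tested. The single libraries were replicate 1 of untreated wild-type cells or 3 of wild-type cells with IFN for the first, 3 of knockout cells with IFN for the second, 2 of untreated wild-type or 1 or 2 of untreated knockout cells for the third, and 3 of wild-type cells with IFN or 1 or 2 of knockout cells with IFN for the fourth.

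Fos (chromosome 12, 85473890 to 85477273), the prototype of the family, stayed near 1 to 3 CPM. It had 0.986, 1.27 and 1.59 CPM in untreated wild-type libraries and 1.95, 2.30 and 3.04 CPM with IFN. Knockout libraries had 1.06, 1.11 and 1.36 CPM without and 2.26, 2.1 and 2.47 CPM with IFN, and in each genotype the IFN libraries did not overlap the untreated ones. Fos rose with IFN by 0.92 ± 0.22 in wild-type (adjusted p = 0.0214) and 0.95 ± 0.22 in knockout cells (adjusted p = 0.0126). The wild-type call was lost without replicate 1 of untreated cells or 2 or 3 of cells with IFN (adjusted p up to 0.0859), and without both libraries over 2% mitochondrial (0.72, adjusted p = 0.114). It was also lost in an edgeR fit of only the groups compared (0.922, adjusted p = 0.102). The call in knockout cells was lost without replicate 1 of untreated cells or 3 of cells with IFN (adjusted p up to 0.0537). Between genotypes Fos differed by -0.12 ± 0.23 in untreated cells (adjusted p = 0.763) and by -0.10 ± 0.21 in cells with IFN (adjusted p = 0.827).

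Batf2 (chromosome 19, 6140983 to 6172476), which can replace Batf3 in dendritic cells, had the largest called differences of the members with over 3 counts in every group. It had 5.89, 6.53 and 4.64 CPM in untreated wild-type libraries and 28.5, 32.4 and 35.4 CPM with IFN. Knockout libraries had 0.982, 1.06 and 1.02 CPM without and 14.8, 15.2 and 15.6 CPM with IFN. The 4 groups did not overlap, and untreated knockout libraries were the lowest. Batf2 rose 5.64-fold with IFN in wild-type cells (log2 2.50 ± 0.13, adjusted p = 1.96e-07) and 14.8-fold in knockout cells (3.89 ± 0.15, adjusted p = 2.06e-09). In the knockout it fell by 2.47 ± 0.15 on the log2 scale without IFN (adjusted p = 1.05e-07) and by 1.08 ± 0.13 with IFN (adjusted p = 7.09e-05). The interaction was 1.39 ± 0.19 on the log2 scale (adjusted p = 0.00187). As a ratio, the rise with IFN was larger in knockout cells, which started lower and ended lower. In CPM it was larger in wild-type cells, with means of 5.69 and 32.1 against 1.02 and 15.2 in knockout cells. All 5 calls held whichever library was left out.

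Batf3 (chromosome 1, 191097847 to 191108945), needed for a class of cross-presenting dendritic cells, was rare. It had 27, 7 and 12 counts in untreated wild-type libraries, 14, 12 and 7 with IFN, 0, 3 and 0 in untreated knockout libraries and 12, 7 and 21 in knockout libraries with IFN. Untreated knockout libraries lay below all others. Its level was 19.3 times higher in untreated wild-type than in untreated knockout cells, with a 95% counting interval of 6.20 to 97.0 from 46 and 3 counts. With IFN in knockout cells it was 14.4 times higher than without (4.58 to 72.6, from 40 and 3 counts). These intervals cover counting error only. Both differences passed in edgeR (adjusted p = 0.00862 and 0.0221), and the second was lost without replicate 1 or 3 of untreated knockout cells or 3 of knockout cells with IFN (adjusted p up to 0.0918). The interaction did not pass in edgeR (adjusted p = 0.176) but did in DESeq2 (adjusted p = 0.039). Batf (chromosome 12, 85686669 to 85709087), known from T and B cells, had 2, 5 and 3 counts in untreated wild-type libraries, 0, 4 and 0 with IFN, 0 in each untreated knockout library and 0, 3 and 0 in knockout libraries with IFN. The 0 counts in untreated knockout cells allow up to 0.0232 CPM, at 3 counts over the group.

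In wild-type cells, IFN was called on 5 of the 9 tested members, 4 higher (Junb, Fosb, Fos, Batf2) and 1 lower (Jund), where 9.38% of all 16676 tested genes were called, 4.66% higher and 4.72% lower. For 5 members the groups did not overlap, against 27.9% of genes. The members' median log2 fold change was 0.59, against -0.001 over all genes. In knockout cells 7 were called, 6 higher (the same 4 with Fosl1 and Batf3) and 1 lower (Jund), against 12.8% of all genes, 5.47% higher and 7.28% lower. The median was 0.85 against -0.006, and for 8 members the groups did not overlap, against 39.4% of genes. Batf3 passed the filter on low counts only through groups other than the untreated knockout, where it had 0, 3 and 0 counts. Its call and lack of overlap in knockout cells are thus no support. The interaction called Batf2 alone, 1 higher and 0 lower of 9, against 1.02% of all genes, 0.708% higher and 0.312% lower; the other members apart from Batf3 had adjusted p of 0.667 to 0.998. In a bulk sample, fewer cells with a transcript and less transcript per cell cannot be told apart.

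**Figure D4:**
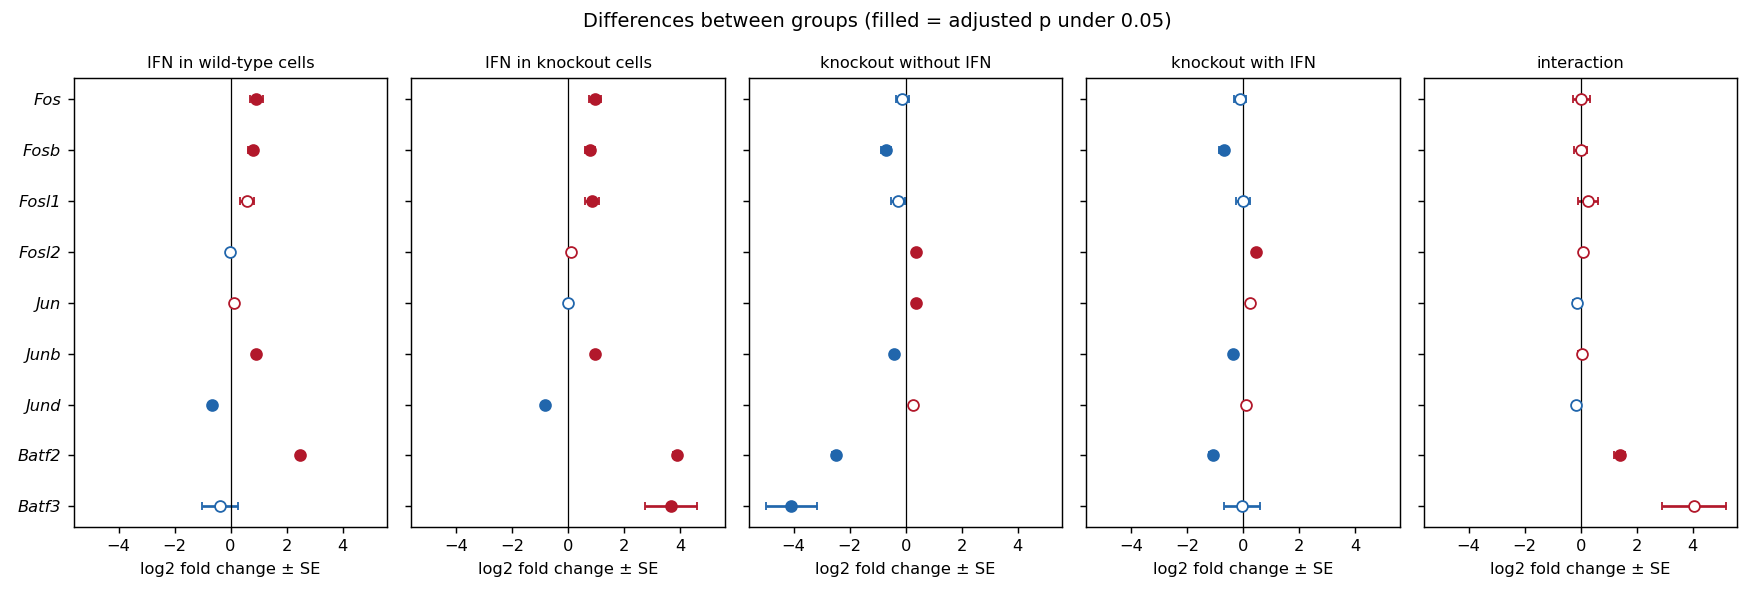
Log2 fold changes with standard errors (horizontal axis) of the 9 tested members in the 4 comparisons and the interaction; filled points passed an adjusted p of 0.05 in edgeR. Junb, Fosb, Fos and Batf2 lie right of 0 and Jund left of 0 in both IFN comparisons.

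In the knockout without IFN, 6 of 9 members were called, 2 higher (Jun, Fosl2) and 4 lower (Junb, Fosb, Batf2, Batf3), against 17.0% of all genes, 6.43% higher and 10.6% lower. For 7 members the groups did not overlap, against 33.5% of genes. With IFN 4 were called, 1 higher (Fosl2) and 3 lower (Junb, Fosb, Batf2), against 15.7%, 5.11% higher and 10.6% lower, and for 5 members the groups did not overlap, against 41.1% of genes. The medians were -0.28 and -0.03, against -0.005 and -0.003 over all genes. The median with Batf3 at the bound of its counting interval was the same in the first and -0.01 in the second. Batf3 passed the filter only through groups other than the untreated knockout, where it had 0, 3 and 0 counts. Its call and lack of overlap without IFN are thus no support. In a fit of only the groups compared, 3 members were called without IFN.

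Lists of related genes, chosen with earlier results of these data known, are given as counts, to be read against the shares of all genes called: 4.66% higher and 4.72% lower with IFN in wild-type cells, 5.47% and 7.28% with IFN in knockout cells, 6.43% and 10.6% in the untreated knockout, and 5.11% and 10.6% in the knockout with IFN. Of 30 other immediate early genes, 10 rose and 0 fell with IFN in wild-type cells (median 0.35), and 11 rose and 4 fell in knockout cells (0.36). The 15 calls in knockout cells became 9 without replicate 3 of knockout cells with IFN. Egr1, an immediate early zinc finger factor, went from 28.9 ± 9.89 to 124 ± 36.2 CPM in wild-type cells (log2 2.1 ± 0.24, edgeR adjusted p = 0.000176). Zfp36, which destabilises cytokine mRNA, rose by 1.13 ± 0.19 (adjusted p = 0.00258). In the knockout, 3 of the list rose and 6 fell without IFN, and 1 rose and 9 fell with IFN. The 10 calls with IFN became 6 without replicate 1 or replicate 2 of knockout cells with IFN. Sgk1, a survival kinase, rose in both, by 0.97 ± 0.06 (adjusted p = 3.47e-07) and 0.84 ± 0.06 (adjusted p = 1.95e-06).

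Of 29 tested genes reported as AP-1 targets, 13 rose and 2 fell with IFN in wild-type cells (median 0.46), and 16 rose and 3 fell in knockout cells (0.60). Cxcl1, a neutrophil chemokine, rose from 30.8 ± 1.55 to 176 ± 24.5 CPM in wild-type cells (2.52 ± 0.10, adjusted p = 1.19e-08). Hbegf, an EGF receptor ligand, rose by 1.02 ± 0.07 (adjusted p = 1.23e-06). Spp1 (osteopontin) fell by 0.85 ± 0.07 (adjusted p = 7.97e-06). In the knockout, 2 rose and 10 fell without IFN (median -0.26), and 3 rose and 10 fell with IFN (-0.13). The 13 calls with IFN became 7 without replicate 2 of wild-type cells with IFN or replicate 1 of knockout cells with IFN, and 6 without replicate 2 of knockout cells with IFN. Spp1 fell by 1.37 ± 0.07 without IFN (adjusted p = 2.71e-08), and Mmp9, a matrix protease, fell from 7.24 ± 0.984 to 1.91 ± 0.381 CPM (-1.92 ± 0.21, adjusted p = 3.27e-05). In a fit of only the groups compared, 2 immediate early genes were called with IFN in wild-type cells and 6 AP-1 targets in the untreated knockout.

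**Figure D5:**
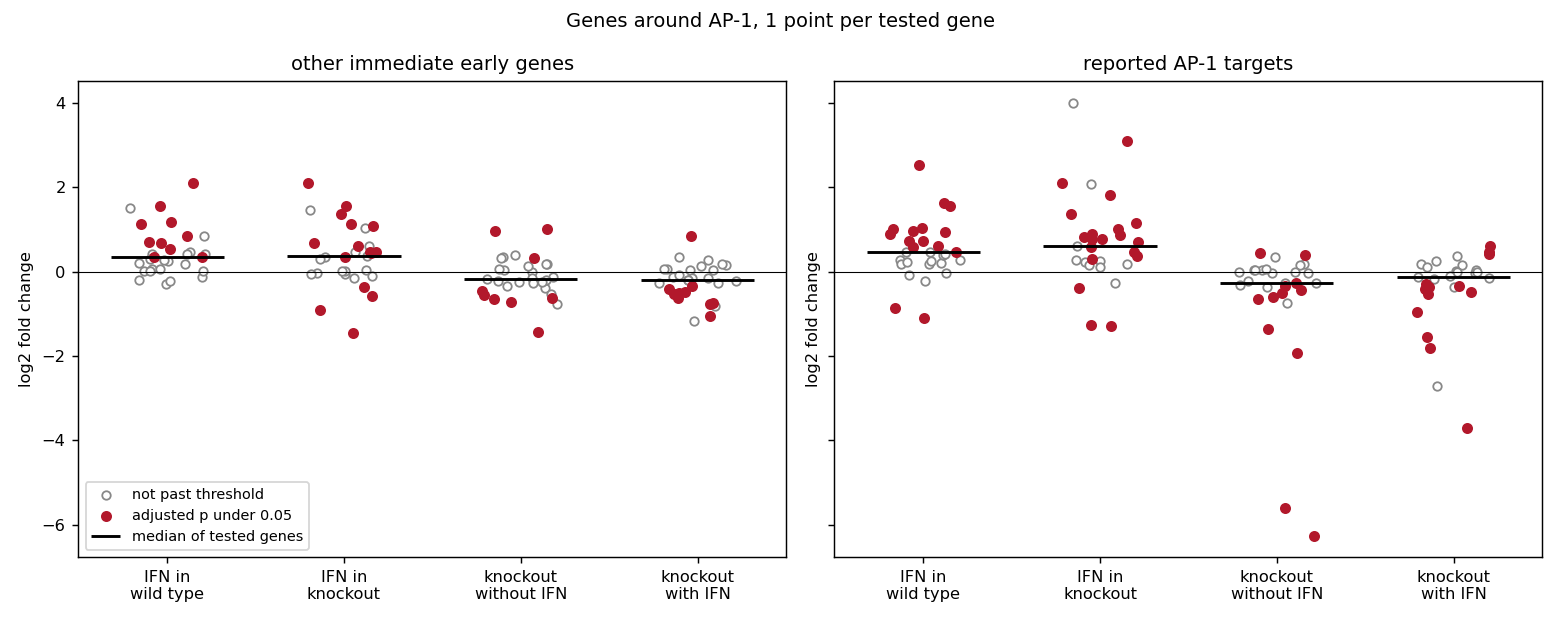
Log2 fold changes (vertical axis) of the tested other immediate early genes (left) and reported AP-1 targets (right) in 4 comparisons, 1 point per gene; filled points passed an adjusted p of 0.05 in edgeR and bars are medians. The medians lie above 0 with IFN and below 0 in the knockout, and among the AP-1 targets the lowest points, Il6 and Areg in the untreated knockout, are genes with few or no counts there.

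Upstream and partner genes varied, and several of their shares lay near those of all genes. Of 34 tested entries of the MAPK cascade and its phosphatases, 6 rose and 2 fell with IFN in each genotype, among them Dusp6, an ERK phosphatase, by 1.15 ± 0.10 (adjusted p = 1.77e-05) in wild-type cells. In the knockout 5 rose and 4 fell, with and without IFN, and the kinase Map2k1 fell by 0.84 ± 0.11 without IFN (adjusted p = 0.000189). The 4 that fell are 11.8% of the list, near the 10.6% of all genes. Of 8 tested genes of SRF and its cofactors, Srf alone rose with IFN in wild-type cells (0.56 ± 0.12, adjusted p = 0.0138) and it differed by 0.25 ± 0.12 in knockout cells (adjusted p = 0.225). That 1 of 8 is 12.5% of the list, near the 9.38% of all genes called, and the Srf call was lost without replicate 3 of wild-type cells with IFN. Among 32 other tested bZIP genes, 3 rose and 5 fell with IFN in wild-type cells, and 3 rose and 9 fell in knockout cells. Crem, a cAMP-responsive factor, rose by 1.59 ± 0.15 (adjusted p = 3.44e-05) in wild-type cells. In the knockout 2 rose and 8 fell without IFN and 0 rose and 11 fell with IFN. Atf3, a stress-induced partner of Jun, fell by 1.01 ± 0.13 (adjusted p = 0.000123) and by 1.89 ± 0.13 (adjusted p = 7.94e-07). Of 8 tested Batf partners and Batf-linked genes, 2 rose and 4 fell with IFN in wild-type cells, and 3 rose and 3 fell in knockout cells. Irf1 and Irf8, IRF partners of Batf proteins, rose in wild-type cells by 2.18 ± 0.08 (adjusted p = 9.53e-09) and 3.72 ± 0.14 (adjusted p = 1.16e-08). In the knockout 0 rose and 5 fell without IFN, and 1 rose and 2 fell with IFN.

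The genes most like each member were ranked by Pearson's correlation of log2 CPM over the 12 libraries, among 10872 genes with a mean of at least 2 CPM. The libraries share groups and depth, so these values describe the pattern only. Batf2 was most like Cxcl9, a T cell chemokine, and Cd274, which encodes PD-L1 (0.996 each). Junb was closest to Plekho2 (0.988) and Socs1, a feedback inhibitor of cytokine signalling (0.987). For Jund the genes were Rsph3b (0.974) and Il16 (0.973), and for Fosl1 Fxyd5 (0.984) and Bak1 (0.977). Fosb was closest to Zfp36 (0.975) and Eaf1 (0.972), Fosl2 to Evc and Amigo2 (0.978 each), and Jun to Aktip (0.970) and Nhs (0.960). Between members, Junb correlated with Batf2 at 0.96 and with Jund at -0.94.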

How the data were processed

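Per the submitters' processing notes, reads were handled with CASAVA, Trimmomatic 0.36, FastQC 0.11.2 and HISAT2 2.1.0 on GRCm38; the sources used here name no counter, annotation release or strand setting. The authors deposited raw counts by Ensembl gene, and their own TPM values, for 12 libraries, 3 per group. Genes at even low counts outnumbered odd ones 1.39 to 1.65 times, so counting intervals may be too narrow. Positions and overlaps were taken from GENCODE M21 (GRCm38).

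Counts were tested in R 4.3.3 with edgeR 4.0.16 (TMM, filterByExpr with a minimum count of 10 and total of 15, robust quasi-likelihood fit of all 12 libraries, 1 mean per group, 8 residual degrees of freedom), which kept 16676 genes. P-values were adjusted by Benjamini-Hochberg over all genes tested, with a threshold of 0.05. A gene is said to rise or fall where it passed. Standard errors divide the size of the log2 fold change by the square root of F. Alternatives were DESeq2 1.42.0 (size factors and Wald test), no filter, a replicate block, only the groups compared, limma 3.58.1 on log2(TPM + 1) and log2(TPM + 0.1), and each library left out. The procedure was tested on simulated data with less spread between libraries than these data and with changes by IFN only. That test does not show how the calls behave at the spread of these libraries. The members and lists were chosen with earlier results of these data known. All members are described, with the 4 genes of smallest p per list and comparison eligible to be named and the 2 genes most like each member of at least 2 CPM; Ccdc85b and Gm11175 are named for their overlaps.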

Additional observations from a re-analysis of the deposited data

Results flagged for a closer look

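The IFN effect differed between genotypes by the interaction test of edgeR, adjusted over all genes, for 9 of the genes examined. The lists examined held 202 entries, not all of them tested, and were chosen with earlier results of these data known. Of all 16676 tested genes, 1.02% were called by this test. Batf2 rose more with IFN in knockout than in wild-type cells, by 1.39 on the log2 scale. Cd274, which encodes PD-L1, differed the same way by 1.22 on that scale. It went from 17.9 ± 1.64 to 112 ± 9.26 CPM (SD, n = 3) in wild-type cells and from 2.75 ± 0.377 to 39.9 ± 1.83 CPM in knockout cells. Irf1 differed by 1.02, Irf8 by 0.93 and Ier3 by 0.79, also with the larger rise in knockout cells. Atf3 (-0.88), Ctgf (-1.52), Dusp8 (-0.97) and Plk2 (-0.92) had the more negative IFN effect in knockout cells. Plk2 had 183 ± 7.05 and 185 ± 4.21 CPM in wild-type cells, without and with IFN, and 206 ± 9.19 and 110 ± 4.38 CPM in knockout cells. Of the exonic bases of Ctgf 23.2% and of Cd274 14.1% overlap another annotated gene.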

How the results depend on the processing

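Of 879 member values recomputed under the alternatives, 781 kept their direction and side of the threshold, 46 lost a call, 8 gained one and 44 changed sign; the cause was not tested unless named. With only the groups compared in the fit, 648 genes were called with IFN in wild-type cells (1564 with all libraries), and 1494 genes (2835) and 3 members in the untreated knockout. Without the wild-type libraries over 2% mitochondrial, 3529 genes (2127) were called with IFN in knockout cells, and Fosl1 in the knockout was 0.077 without and 0.295 with IFN, and Fos 0.101 with IFN. The interaction called 357 genes (170) and 2 members in DESeq2 and 112 genes on log2(TPM + 1). On log2(TPM + 0.1), 4 members were called with IFN in knockout cells. Because Junb is listed at a TPM of 0 in 1 library, Junb in the untreated knockout was 1.999 on log2(TPM + 1) and 3.1 on log2(TPM + 0.1), and its interaction -2.341 and -3.444. Fosl1 in the knockout with IFN was 0.051 on both TPM scales and 0.024 without a filter, Fos 0.004 on log2(TPM + 0.1) and Batf3 0.008 without a filter. The Fosb interaction was -0.0 with DESeq2 size factors, -0.002 in DESeq2, -0.12 on log2(TPM + 1) and -0.064 on log2(TPM + 0.1). Grouped by the genotype and treatment entries, Smarcd1 in the knockout was 0.183 without and 0.217 with IFN.

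With 1 library left out, members called ranged from 3 to 6 with IFN in wild-type cells, 3 to 7 with IFN in knockout cells and 2 to 5 in the knockout with IFN. Genes called ranged from 883 to 1825, 1349 to 3007 and 1726 to 3454 in the same order. IFN in wild-type cells gave Fosl2 -0.029 to 0.011 and Batf3 -0.749 to 0.284; IFN in knockout cells gave Jun -0.049 to 0.006. The untreated knockout gave Fos -0.274 to 0.063 and Fosl1 -0.425 to 0.078. The knockout with IFN gave Batf3 -0.555 to 0.246, Fos -0.229 to 0.1 and Fosl1 -0.186 to 0.295. The interaction gave Fos -0.157 to 0.218, Fosb -0.132 to 0.131, Fosl1 -0.086 to 0.569 and Junb -0.023 to 0.129. None of these was called in the fit of all 12 libraries.

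The sources used here do not say whether the replicate numbers pair the libraries. Same-numbered libraries correlated at -0.162 to 0.114 in their deviations from the group means, and other pairs at -0.17 to 0.194. These values show no stronger likeness of same-numbered libraries but cannot exclude pairing. With the replicate number as a block, members called were 5 and 6 with IFN in wild-type and knockout cells, 6 and 4 in the knockout without and with IFN, and 1 in the interaction; Fosl1 with IFN in knockout cells lost its call (adjusted p = 0.0518) and Fosl1 in the knockout with IFN was 0.014. Fos, Batf3 and Batf are limited by their low counts.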

Other observations

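Pax5, the B cell lineage factor, was the main gene of the B cell list, with 7741 of its counts, while Ms4a1 had 0. It had 10.9, 56.4 and 43.3 CPM in untreated wild-type libraries and 4.67, 1.93 and 6.43 CPM in untreated knockout libraries, a log2 fold change of -3.08 ± 0.61 (edgeR adjusted p = 0.00739). With IFN it had 24.5, 44.1 and 23.2 CPM in wild-type and 3.23, 3.53 and 3.87 CPM in knockout libraries. Maff, a small Maf protein that pairs with other bZIP factors, was lowest in the wild-type libraries with the most mitochondrial counts, at 28.9 CPM in replicate 2 of untreated cells (59.7 and 62.1 in the others) and 43.9 CPM in replicate 3 with IFN (79.0 and 82.6). Maff was singled out after its values were seen.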
